A study of Homo sapiens with 18 samples.

Results

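The glucocorticoid receptor binding regions (GBR) described here are those of cells in which the coregulator Hic-5 had been depleted, and the question was which of them were still called when the chromatin remodeler CHD9 was depleted as well. Members were chosen by overlap of 2 peak lists. A siHic5/siNS GBR was called lost when no siCHD9/siHic5 peak overlapped it by at least 1 bp and kept when one did, and a siCHD9/siHic5 peak without a siHic5/siNS peak was called new. There were 7190 lost, 2343 kept and 84 new GBR, 9617 in all, against 9736 merged regions over the 6 lists of the series.

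The cells were U2OS-GRα, an established human osteosarcoma line that stably expresses the α isoform of the glucocorticoid receptor, so that GR came from a transgene in every condition. Cells were transfected with 2 siRNAs at a time for 48 h and all then received 100 nM dexamethasone (dex), a synthetic glucocorticoid, for 1 h before chromatin immunoprecipitation of GR and sequencing (ChIP-seq). siHic5/siNS cells received siRNA against Hic-5 with a non-specific siRNA (siNS), siCHD9/siHic5 cells received siRNA against CHD9 and Hic-5, siNS/siNS cells received only the non-specific siRNA and so had both proteins, siCHD9/siNS cells were depleted of CHD9 alone, and siBRM/siHic5 and siBRM/siNS cells were depleted of BRM with or without Hic-5 depletion. Each list was one set of peaks that the submitters called from 2 replicates pooled, and no list from cells without dex was analysed here. The lists give no read counts, so the depth behind a peak could not be entered in any comparison. The spread of the replicates is likewise not in them, and the intervals below cover counting over regions only. The p-value of a peak depends on depth, so that depth and occupancy cannot be told apart in a difference between lists. The markers of the cell line and the level of CHD9 or Hic-5 cannot be checked in peak lists.

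GR is a nuclear receptor that enters the nucleus when bound by hormone and occupies the glucocorticoid response element (GRE), a pair of inverted hexamers separated by 3 bases, often beside sites of factors that open chromatin such as AP-1. CHD9 is an ATP-dependent remodeler of the chromodomain helicase family, and BRM is an ATPase of the SWI/SNF remodeling complex. Hic-5, encoded by TGFB1I1, is an adaptor protein of focal adhesions that also acts in the nucleus as a coregulator of steroid receptors.

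The sequences below show what a lost, a kept and a new GBR with a full GRE looked like, in the 200 bp centred on the summit. They are 3 lost, 2 kept and 2 new GBR, chosen by strength among those that held a GRE match. All lay more than 1 kb from the canonical transcription start site (TSS) of any protein-coding gene. Build GRCh38, plus strand, 5′ to 3′, with capitals for each match to the GRE (GNACA and TGTNC separated by any 3 bases), to AP-1 (TGANTCA) or to ETS (CNGGAAGT).
Lost, ST3GAL5, chr2:85924552-85924751: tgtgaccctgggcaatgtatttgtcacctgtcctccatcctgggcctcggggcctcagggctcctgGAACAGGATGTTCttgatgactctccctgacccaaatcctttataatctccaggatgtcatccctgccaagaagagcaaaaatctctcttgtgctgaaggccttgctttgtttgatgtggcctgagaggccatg
Lost, VPREB1, chr22:22358359-22358558: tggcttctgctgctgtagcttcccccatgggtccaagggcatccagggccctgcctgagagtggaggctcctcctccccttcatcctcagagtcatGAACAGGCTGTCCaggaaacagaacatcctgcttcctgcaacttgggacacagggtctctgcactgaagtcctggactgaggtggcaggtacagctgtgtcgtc
Lost, SLC25A18, chr22:17570915-17571114: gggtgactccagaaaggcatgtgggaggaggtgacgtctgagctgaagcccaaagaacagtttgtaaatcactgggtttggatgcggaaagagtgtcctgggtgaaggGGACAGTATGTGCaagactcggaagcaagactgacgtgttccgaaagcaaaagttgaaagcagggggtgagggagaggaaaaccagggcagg
Kept, FKBP5, chr6:35728008-35728207: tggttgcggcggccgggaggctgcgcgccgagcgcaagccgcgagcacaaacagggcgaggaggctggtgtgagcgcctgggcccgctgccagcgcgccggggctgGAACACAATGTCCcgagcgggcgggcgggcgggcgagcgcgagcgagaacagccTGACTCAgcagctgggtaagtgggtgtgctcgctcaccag
Kept, UBE2QL1, chr5:6519755-6519954: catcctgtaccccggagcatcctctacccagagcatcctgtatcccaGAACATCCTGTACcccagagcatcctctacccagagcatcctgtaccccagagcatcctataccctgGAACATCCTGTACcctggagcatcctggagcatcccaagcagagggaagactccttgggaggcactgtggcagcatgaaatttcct
New, PDE4D, chr5:59982101-59982300: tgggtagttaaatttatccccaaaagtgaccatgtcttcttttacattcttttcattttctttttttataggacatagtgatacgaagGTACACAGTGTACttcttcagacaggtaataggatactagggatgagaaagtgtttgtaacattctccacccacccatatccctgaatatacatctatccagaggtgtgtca
New, GGTLC1, chr20:24148591-24148790: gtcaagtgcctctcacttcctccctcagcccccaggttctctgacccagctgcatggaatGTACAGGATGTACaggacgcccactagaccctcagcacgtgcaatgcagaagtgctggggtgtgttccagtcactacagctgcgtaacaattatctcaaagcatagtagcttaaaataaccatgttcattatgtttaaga

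The lost examples each carried 1 GRE and no AP-1 match. Their ranks by −log10 p in the siHic5/siNS list were 301 near ST3GAL5, 529 near VPREB1 and 572 in an intron of SLC25A18. The kept example in FKBP5, the gene of a co-chaperone that restrains GR, ranked 3 and carried both a GRE and an AP-1 match. It lay within the annotated gene but 39.2 kb upstream of its canonical TSS. The kept example near UBE2QL1 ranked 7 and carried 2 GRE matches in a tandem repeat. The new examples, in a PDE4D intron and near GGTLC1, ranked 1397 and 1880 of 2451 in the siCHD9/siHic5 list.

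Of the 9533 siHic5/siNS GBR, 75.4% were lost (95% Wilson interval 74.5 to 76.3%). Set beside this, 51.4% of the 2582 siNS/siNS GBR had no siCHD9/siNS peak, and 65.4% of the siHic5/siNS GBR had no siBRM/siHic5 peak. The BRM comparison starts from the same siHic5/siNS list. The siBRM/siHic5 list had higher values, with a lowest −log10 q of 14.2 and a median −log10 p of 32.8, against 20.7 in the siCHD9/siHic5 list. The 2 lists may not be on the same scale, so the loss shares of the 2 remodelers are not at like thresholds. Held to a −log10 q of 14.2, the siCHD9/siHic5 list left 85.3% of the siHic5/siNS GBR without a peak. This alternative was chosen after seeing the data and need not be a like threshold either. In the other direction, 3.43% of the 2451 siCHD9/siHic5 GBR were new (2.78 to 4.22%). The overlap was nearly one to one, since 24 kept GBR held 2 or more siCHD9/siHic5 peaks and 2 siCHD9/siHic5 peaks spanned 2 or more siHic5/siNS GBR. With such overlap, the length of the second list sets a floor under the share lost. The second lists held 2451 (siCHD9/siHic5), 1415 (siCHD9/siNS) and 3383 peaks (siBRM/siHic5). The shares lost thus rest in large part on list lengths, and list length cannot be told apart from occupancy here. The lowest −log10 q was 8.91 in the siHic5/siNS list and 7.74 in the siCHD9/siHic5 list. Both lists were selected across replicates, so these minima are not caller cutoffs and do not show how strictly each list was called. Between equal numbers of peaks the share lost was lower, 31.3% when only the 2451 strongest siHic5/siNS GBR were taken and 29.6% between the 1000 strongest of each list.

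Loss went with the strength of the peak before CHD9 depletion. The −log10 p of lost GBR in the siHic5/siNS list had a median of 18.8 (quartiles 14.8 to 26.7, highest 147), and that of kept GBR had a median of 56.2 (35.2 to 89.7, highest 317). Signal values, the enrichment over background that the peak caller assigns to a peak, had a median of 6.75 at lost and 12.7 at kept GBR, and the peaks were 469 and 663 bp wide. A kept GBR was the stronger member in 89.5% of all pairs of one kept and one lost GBR. None of the 100 strongest GBR was lost, which allows a share of up to 3% by a limit of 3 counts and 3.70% by the Wilson interval. Among the 500 strongest 9 were lost (1.80%), among the 1000 strongest 66 (6.60%) and among the 5000 strongest 2848 (57.0%).

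The GBR were then divided by −log10 p into 10 groups of equal size. In the strongest group, 6.08% of the GBR were lost (4.73 to 7.78%), in the second 40.6% (37.5 to 43.8%), in the third 61.5% and in the fifth 88.4%, and the 3 weakest groups lay between 97.1 and 97.7%. Loss to BRM depletion, read on the same GBR, was 1.26% in the strongest group, 12.4% in the second, 39.2% in the third and 77.2% in the fifth. When Hic-5 was present, CHD9 depletion lost 0 of 204 siNS/siNS GBR with a −log10 p in the range of the strongest group (which allows up to 1.47% by 3 counts and 1.85% by the Wilson interval), 3.38% of 207 in that of the second (1.65 to 6.81%), 16.1% in that of the third and 51.3% in that of the fifth. The share lost was higher in the Hic-5 depleted comparison in each of the 10 ranges. The intervals count regions of 1 pair of pooled lists each, and the difference between the 2 CHD9 comparisons was not tested. The lists also differ in relative length, with 2451 peaks set against 9533 GBR and 1415 against 2582. Weighting the loss in siHic5/siNS cells to the strength profile of the siNS/siNS list gave 77.9%, against 51.4% measured in the latter. The 2 CHD9 comparisons were called from separate libraries whose −log10 p may not be on the same scale.

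**Figure D1:**
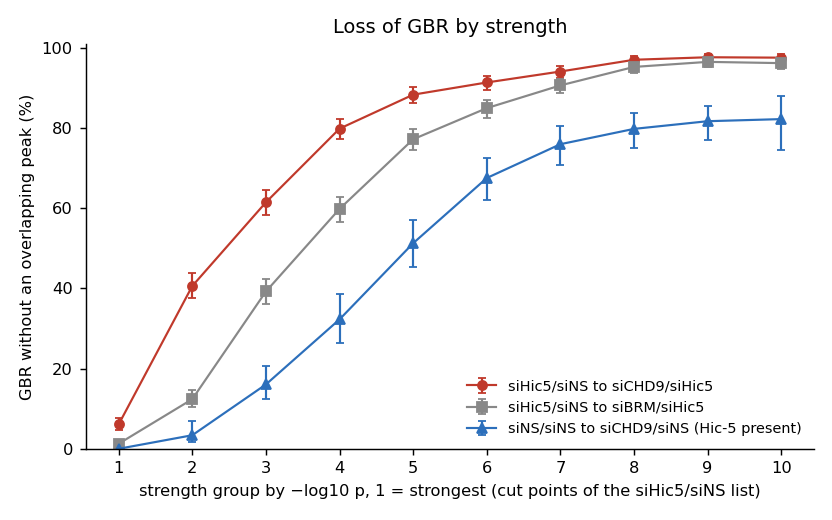
Share of GBR without an overlapping peak after CHD9 or BRM depletion (y axis, percent) in 10 groups by −log10 p (x axis, 1 is strongest), with 95% Wilson intervals as bars. Loss after CHD9 depletion in Hic-5 depleted cells rose from 6.08% in the strongest group to over 97% in the 3 weakest. Every point lies above those of the BRM comparison and of the comparison with Hic-5 present. The second lists differ in length and may differ in scale.

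The strongest lost GBR lay in an intron of SKI, which encodes a repressor of SMAD transcription factors, 27.2 kb from its TSS, with a −log10 p of 147 and rank 193. The next lay 11.5 kb upstream of GPIHBP1, which encodes the lipoprotein lipase anchor of capillaries (137, rank 237), and in an intron of ANXA13 with KLHL38 as the nearest TSS (123, rank 300). Those that followed lay near ST3GAL5, a sialyltransferase gene of ganglioside synthesis (123, rank 301), DUSP4, a phosphatase gene of the MAP kinase pathway (118, rank 338), and RHOB, a small GTPase gene (114, rank 365). None of these 6 windows held an AP-1 match, and 2 held a GRE. Those of SKI and RHOB were not called in siNS/siNS cells, while the other 4 were. All but the DUSP4 site were called in siBRM/siHic5 cells, and none was called in siCHD9/siNS cells.

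The strongest kept GBR were at IP6K3, an inositol phosphate kinase gene, at NFKBIA, which encodes the NF-κB inhibitor IκBα, in the FKBP5 gene, at the metallothionein gene MT2A, at HIF3A and upstream of NPTX2. Their siHic5/siNS −log10 p lay between 300 and 317, and every one was called in all 6 lists. After CHD9 depletion their signal values were lower. That of IP6K3 went from 53.6 to 31.4 and that of NFKBIA from 55.7 to 38.3. That of the FKBP5 site went from 44.9 to 33.7, and this peak was then first in the siCHD9/siHic5 list. MT2A went from 46.3 to 30.0, HIF3A from 42.2 to 24.8 and NPTX2 from 45.3 to 23.7. At the other end of the range, the weakest kept GBR, ranked 9465 of 9533, lay 11.3 kb upstream of OR1M1 and had a −log10 p of 12.0.

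The kept GBR as a set were in the same place and lower. The summits of a kept pair were 17 bp apart at the median, and 88.1% lay within 50 bp. The signal value had a median of 12.7 before and 6.59 after CHD9 depletion and was lower in 2173 of the 2343 pairs (92.7%). The ratio of the latter to the former had a median of 0.569 (quartiles 0.433 to 0.722). The peak was narrower in 2235 pairs (95.4%), with a median width of 663 bp before and 440 bp after. The order was kept in part, with a Spearman correlation of 0.616 for the signal value across the 2343 pairs, which share the sites and the 2 lists and are not replicates. Of the 100 strongest siHic5/siNS GBR, 74 were among the 100 strongest of the siCHD9/siHic5 list. The signal values were computed by the submitters in each list on its own, so the part of scale in the drop cannot be told apart from that of occupancy.

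**Figure D2:**
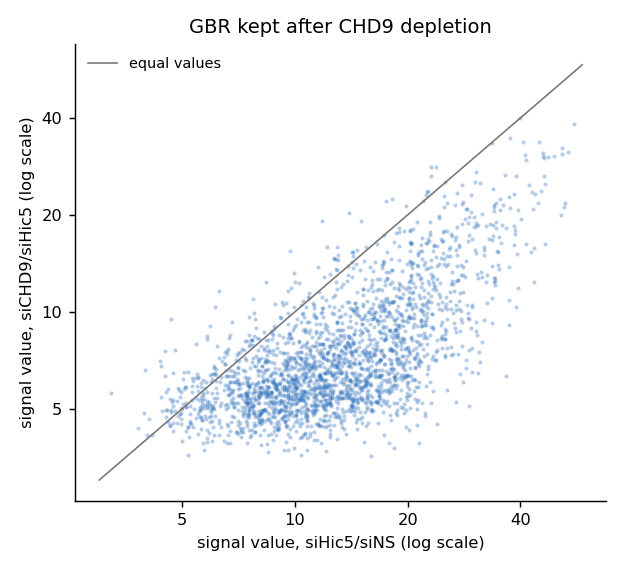
Signal value of each of the 2343 kept GBR in the siHic5/siNS list (x axis, log scale) and of the peak that overlaps it most in the siCHD9/siHic5 list (y axis, log scale), 1 point per GBR, with a line at equal values. In 2173 pairs the point lies below the line.

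The motifs of 8 transcription factor families were searched on both strands in the 200 bp around each summit, and in windows of the same length 5 kb to either side. The GRE was found in 15.3% of lost, 24.7% of kept and 0.273% of flanking windows. AP-1, the site of FOS and JUN dimers, was found in 21.8% of lost and 33.7% of kept GBR and in 6.14% of flanks. The GR half-site TGTTCT was found in 37.7% of lost, 37.3% of kept and 14.8% of flanking windows. ETS was found in 6.90%, 6.19% and 2.66%, TEAD (CATTCCA) in 7.82%, 9.35% and 3.95%, and RUNX (TGTGGTT) in 5.76%, 7.77% and 3.51% of the same windows. C/EBP (TTGCNNAA) and FOX (TGTTTAC) were found in 11.0% and 3.78% of lost and 11.4% and 3.63% of kept GBR. GRE and half-site matches can overlap, since a GRE may contain the half-site.

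Since strong GBR were both richer in GRE and less often lost, each motif was fitted in a logistic regression over all 9533 siHic5/siNS GBR with peak strength and GC content as covariates. With these covariates, a GBR with an AP-1 match had an odds ratio of loss of 0.390 (95% interval 0.337 to 0.451). RUNX gave 0.588 (0.458 to 0.755) and TEAD 0.737 (0.590 to 0.921). The GR half-site gave 1.26 (1.10 to 1.45), but 1.16 in windows of 1 kb, where it did not pass the adjusted threshold, and 0.960 without the strength covariate. The full GRE gave 0.941 (0.802 to 1.11), where it had been 0.533 (0.475 to 0.598) without the strength covariate. For ETS the odds ratio was 1.21 (0.938 to 1.56), for C/EBP 0.851 (0.695 to 1.04) and for FOX 1.17 (0.841 to 1.63), and these 3 intervals included 1. The intervals rest on regions of 1 pair of pooled lists and not on replicate cultures.

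**Figure D3:**
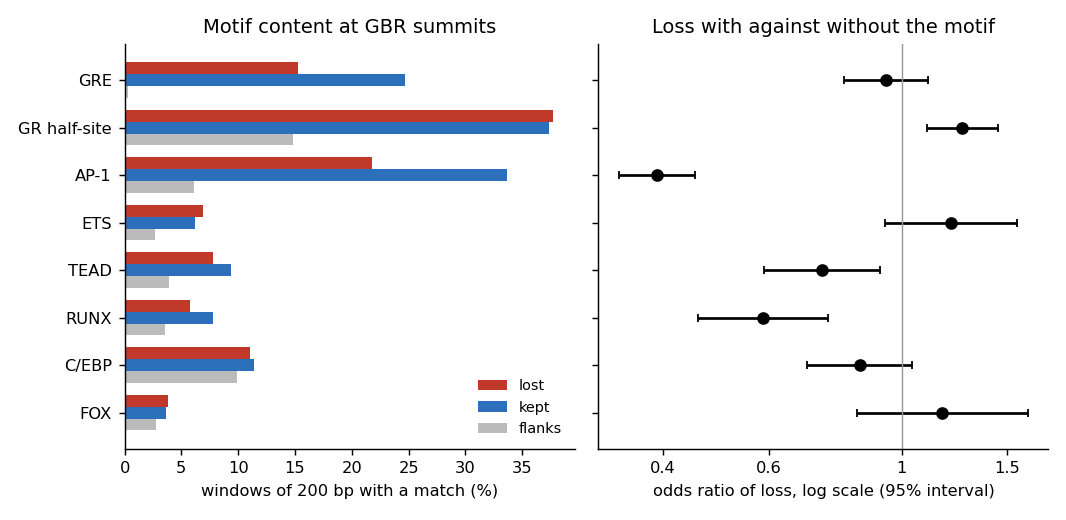
Left, share of 200-bp windows with a match at lost GBR, at kept GBR and in flanks 5 kb away (x axis, percent) for 8 motifs. Right, odds ratio of loss with against without the motif, adjusted for strength and GC content (x axis, log scale, 95% intervals), where AP-1 is the lowest at 0.390 and the GRE, at 0.941, has an interval that includes 1.

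The AP-1 difference was present within the groups of strength. In the second strongest group, 27.8% of 237 GBR with an AP-1 match were lost against 44.8% of 716 without one. In the third group the shares were 45.6% and 66.9%, in the fourth 67.3% and 83.8%, and in the sixth 83.6% and 93.9%. By number of AP-1 matches, 78.4% were lost at 0 (77.4 to 79.3%), 67.1% at 1 (65.1 to 69.2%) and 62.6% at 2 or more (57.3 to 67.6%), and the last 2 intervals overlapped. With both a GRE and an AP-1 match, 44.4% of 268 GBR were lost (38.6 to 50.4%), against 69.6% with a GRE only, 69.3% with AP-1 only and 80.5% with neither. The GBR with both were also the strongest, with a median −log10 p of 40.7 against 26.3, 21.8 and 21.2. In the second strongest group alone the 4 shares were 17.5% of 40, 42.2% of 173, 29.9% of 197 and 45.7% of 543.

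Side by side, the AP-1 odds ratio of loss adjusted for strength was 0.269 (0.212 to 0.342) for CHD9 depletion with Hic-5 present and 0.648 (0.562 to 0.746) for BRM depletion in Hic-5 depleted cells, which shares the siHic5/siNS list. The ETS odds ratio was 0.669 (0.432 to 1.03) and 1.76 (1.37 to 2.26) in these 2 comparisons, and that of the GRE was 1.41 (1.12 to 1.78) and 0.725 (0.617 to 0.852). RUNX lay below 1 in each, at 0.634 (0.447 to 0.898) and 0.599 (0.469 to 0.764). Differences between the odds ratios of the comparisons were not tested.

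In the GBR that held a GRE within 1 kb around the summit, its centre was closer to the summit at kept sites, 11.5 bp at the median (quartiles 6.5 to 27.5) against 20.5 bp at lost sites (9.5 to 45.5). AP-1 lay at a median of 78.5 bp at kept and 101.5 bp at lost sites. These distances were not adjusted for strength, and the median −log10 p was 56.2 over all kept and 18.8 over all lost GBR. The GC content of the summit windows was 50.5% ± 9.24 at kept and 49.5% ± 9.55 at lost GBR (SD over regions).

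Loss by distance to the nearest TSS depended on whether strength was taken into account. Of the 435 GBR within 1 kb of a protein-coding TSS 78.6% were lost (74.5 to 82.2%), and of the 401 beyond 500 kb 70.6% (65.9 to 74.8%). The odds ratio of loss of TSS-proximal against distal GBR was 1.52 (1.18 to 1.94) with GC content as the only covariate and 1.10 (0.784 to 1.54) with strength added as a covariate. GBR in introns were lost in 77.3% of cases and intergenic ones in 73.6%. GBR with no other summit within 10 kb were lost in 77.8% of cases, those with neighbours that were all lost in 75.1%, and those with at least 1 kept neighbour in 62.5% (59.6 to 65.3%). The median −log10 p of these sets was 21.2, 24.5 and 27.7. Clustered against isolated GBR, that is any neighbour against none, gave an odds ratio of 0.699 (0.633 to 0.771) without the strength covariate. With it the odds ratio was 0.996 (0.870 to 1.14). Loss by the fate of the neighbours was not fitted.

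By chromosome, loss ran from 68.3% on chromosome 13 to 79.4% on chromosome 21. Chromosome 8 was singled out after the values were seen, because 3 of the 6 strongest lost GBR lay there. Over all its 538 GBR 78.8% were lost (75.2 to 82.1%). Of its GBR among the 1000 strongest, 13 of 44 beyond 100 Mb were lost (29.5%, 18.2 to 44.2%) and 1 of 16 below it, while on the other chromosomes 52 of 940 were (5.53%, 4.24 to 7.18%). They lay near GPIHBP1, KLHL38, KCNK9, AGO2, TRAPPC9, KCNQ3, GSDMC, DCSTAMP and ZHX2, among others. In the BRM comparison 1 of the same 44 was lost. With Hic-5 present, CHD9 depletion lost 6 of 37 siNS/siNS GBR of this stretch among the 1000 strongest (16.2%), against 15.5% on the other chromosomes.

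The 84 new GBR were weak, with a median −log10 p of 13.3 (11.5 to 35.4), and 4 had a −log10 q of 20 or more. Their number depended on the overlap asked for, and was 409 when each peak of a pair had to cover 50% of the other. None was among the 500 strongest of the siCHD9/siHic5 list, 3 were among the 1000 strongest, and 77 (91.7%) lay in the weaker 50% of the list. Of them 64 were called in this list alone, 12 also in siCHD9/siNS cells, 9 in siBRM/siHic5, 4 in siNS/siNS and 1 in siBRM/siNS. A GRE was found in 7 of the new GBR (8.33%) and AP-1 in 36.9%, against 0.273% and 6.14% of the windows flanking siHic5/siNS GBR. The half-site was found in 13.1%, close to the 14.8% of these flanks. The strongest lay 230 kb upstream of IGFBP3 (−log10 p 35.4, rank 596), 221 kb downstream of the IRS1 TSS (31.5, rank 704) and 0.345 kb from the PARP2 TSS (28.7, rank 814), followed by peaks with CCDC57 and TMCO4 as the nearest TSS (24.3 and 23.7).

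A larger share of the new GBR lay in exons. Taking exons of genes of any type, 25 of the 84 summits lay in one (29.8%, 21.0 to 40.2%), against 8.40% of lost GBR (7.78 to 9.06%), 8.66% of kept GBR (7.59 to 9.87%) and 8.96% of the siCHD9/siHic5 GBR that overlapped the siHic5/siNS list (7.87 to 10.2%). Within the weaker 50% of the siCHD9/siHic5 list the shares were 28.6% of 77 new and 8.62% of 1149 overlapping GBR. Of the 25, 21 were called in none of the other lists, and 6 of the 17 genes concerned held more than one. This set of exons was examined after the place of the new GBR had been seen. The PARP2 peak lay on RPPH1, the RNA of RNase P. MALAT1, a nuclear long noncoding RNA with the antisense transcript TALAM1, held 3 new GBR at −log10 p 23.3, 13.4 and 11.5. RMRP, the RNA of RNase MRP, held 1 at 17.5.

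Further genes with new GBR in their exons were named after their values were seen. EGR1, a zinc finger factor gene that growth factors induce, held 2 (17.8 and 15.9), the AP-1 subunit gene FOSB 3 (15.0, 12.3 and 12.3), and RHOB and BTG2 1 each (14.5 and 13.9). The keratin genes were represented by KRT19 with 2 (16.3 and 12.3) and KRT8 with 1 (11.5), the actin genes by ACTG1 with 2 (14.7 and 11.8) and ACTB with 1 (13.1), and CTSD, which encodes the lysosomal protease cathepsin D, held 2 (15.0 each). Some ran along the gene, with widths of 1918 bp at EGR1, 1738 bp at RHOB and up to 3008 bp at MALAT1, where the median new GBR was 400.5 bp wide.

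**Figure D4:**
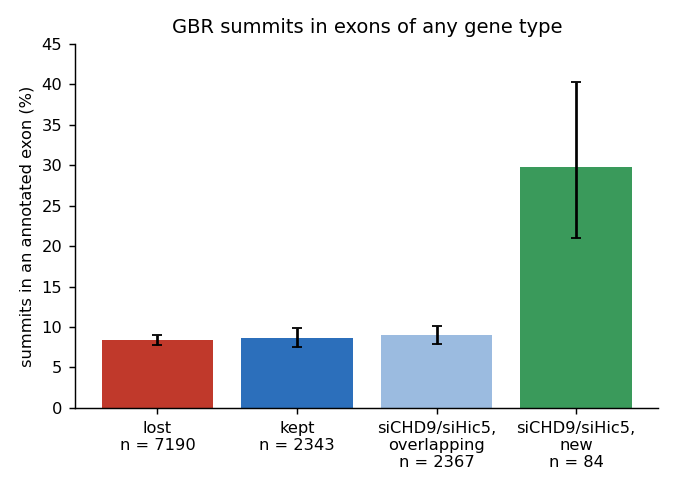
Share of summits that lie in an annotated exon of any gene type (y axis, percent) for lost and kept siHic5/siNS GBR, for siCHD9/siHic5 GBR overlapping them and for new GBR, with 95% Wilson intervals. The new GBR stand at 29.8% and the other 3 sets between 8.40 and 8.96%.

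To describe the genes near these sites, every protein-coding TSS was given the GBR with a summit within 100 kb. Of 20046 genes 8733 had at least 1 siHic5/siNS GBR, and at 5551 of these (63.6%, 62.5 to 64.6%) all were lost. Among genes with 1 GBR 80.7% had only lost ones, with 2 or 3 GBR 55.2%, with 4 to 6 22.1%, and with 7 or more 12.6%. The nearest GBR was kept at 1859 genes (21.3%). The most lost GBR at a gene with none kept was 8, at 9 genes that shared sites and had 35 distinct GBR between them. In alphabetical order the first 5 were CDH15, a muscle cadherin gene, CIBAR2, CTCFL, HMGB1P1 and MED9, a Mediator subunit gene. PTPN1, which encodes a phosphatase of the insulin receptor, had the most kept GBR, 9 of its 14, followed with 7 each by ADRA1B, an adrenergic receptor gene (7 of 8), DDIT4, an inhibitor of mTORC1 (7 of 9), IL17REL (7 of 12) and ERGIC1 (7 of 13).

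Genes of 11 lists were then examined, against a background in which 75.5% of the GBR counted near all protein-coding genes were lost (a GBR counts once for each gene near it). The lists were chosen with earlier results of these data known and get no test. Regulators of the hormone response itself had the smallest share lost, 38 of 75 GBR (50.7%). All 18 such genes with a GBR had a kept one, against 3182 of the 8733 genes with a GBR. They also had more sites, a median of 4 GBR per gene against 1 over all genes with a GBR. Of all genes with 4 to 6 GBR, only 22.1% had lost every one. FKBP5 kept 6 of 9, and those kept had a −log10 p between 90.1 and 313 and those lost between 31.5 and 37.5. DUSP1, a phosphatase gene that ends MAP kinase signals, kept 4 of 6. The transcription factor gene KLF9 kept all 4 of its GBR, from 28.6 to 176, and the clock gene PER1 both of its own. ZBTB16, which encodes a zinc finger factor, lost 5 of 6, and TSC22D3 (GILZ), an anti-inflammatory mediator, lost 4 of 5. The strongest GBR near a gene of this list had a median −log10 p of 175, against 29.2 for all genes with a GBR.

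Genes of inflammation and cytokines followed with 28 of 52 GBR lost (53.8%). Only lost GBR were found at 7 of the 19 genes with a GBR (36.8%), against 63.6% of all genes with a GBR. The median was 2 GBR per gene, against 1 over all genes with a GBR. The strongest GBR near a gene of this list had a median −log10 p of 74.4, and NFKBIA and TNFAIP3 are also in the list of hormone response regulators. LIF, a cytokine of the IL-6 family, kept 5 of 11. SOCS1, a feedback inhibitor of cytokine signals, kept all 4, while its relative SOCS3 lost all 3. IL1R1 kept 3 of 4, ZFP36, which encodes an mRNA decay factor, kept 2 of 4, and the GBR 0.01 kb from the TSS of CXCL8, a chemokine gene, was kept.

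At the other end, genes of TGF-beta signalling lost 24 of 28 GBR (85.7%), and 10 of 14 had only lost ones (71.4%, 45.4 to 88.3%). This interval includes the 63.6% of all genes with a GBR. TGFB1 itself lost all 3, one of them 0.056 kb from the TSS, as did SMAD6 with 4 of 4, SMAD7 with 2 of 2 and SKI with its single GBR. TGFBR2 kept 1 of 4, and SKIL, a relative of SKI, had a single kept GBR 0.396 kb from its TSS with a −log10 p of 85.7. Genes of bone and mesenchymal differentiation lost 18 of 22 (81.8%), with only lost GBR at 12 of 15 (80.0%, 54.8 to 93.0%), an interval that also includes 63.6%. PTH1R, the parathyroid hormone receptor gene, lost all 3, and so did TWIST2. RUNX2 and SP7, which encode factors of osteoblast differentiation, lost their single GBR, while ALPL, alkaline phosphatase, kept 2 of 3 and MSX2 kept 1 at a −log10 p of 203. The strongest GBR near the genes of these lists had median −log10 p values of 35.7 and 21.4.

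**Figure D5:**
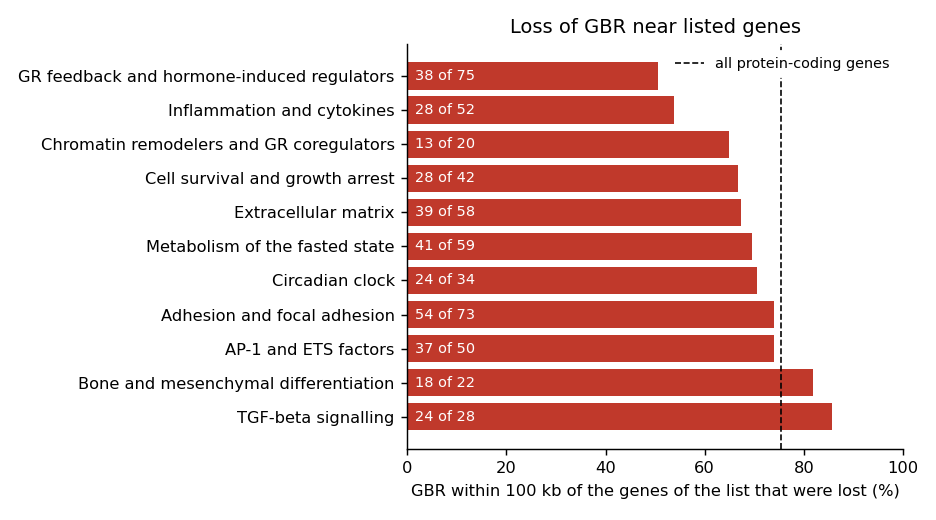
Share of the siHic5/siNS GBR within 100 kb of the genes of each list that were lost after CHD9 depletion (x axis, percent), with the counts in the bars and a dashed line at the 75.5% of all protein-coding genes. Regulators of the hormone response are lowest at 50.7% and TGF-beta signalling highest at 85.7%. The bars carry no intervals, and differences from the dashed line were not tested.

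Genes of adhesion and focal adhesions, the structures in which Hic-5 is also found, lost 54 of 73 GBR (74.0%), close to the background. The integrin genes ITGB1 (6 of 6) and ITGB3 (3 of 3) had only lost GBR, as did TLN1, talin (4 of 4), and ACTN1, α-actinin (3 of 3). ITGA10 kept all 3 and ITGB8 both of its own. ITGA5 lost 3 of 4, one of them 0.068 kb from the TSS, and kept its strongest GBR at a −log10 p of 224. PXN, paxillin, the closest relative of Hic-5, lost 2 of 3, and ZYX, zyxin, lost the single GBR 0.178 kb from its TSS.

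The genes of AP-1 and ETS factors lost 37 of 50 (74.0%). FOSL2 lost 6 of 6 and ELK1 4 of 4, while JUNB kept all 3. FOSB lost 7 of 8 siHic5/siNS GBR and held the 3 new ones in its exons. Clock genes lost 24 of 34 (70.6%). BHLHE40 and NR1D1 each lost 4 of 7, NPAS2 5 of 6, and BMAL1 all 3. Genes of the fasted state lost 41 of 59 (69.5%). DDIT4, named above, had the most GBR and kept 7 of 9, and KLF15 and PDK4 kept 2 of 4 each. PCK1, the gene of a gluconeogenic enzyme, lost 8 of 8, none above a −log10 p of 42.3 and 7 of them also near CTCFL, and LPIN1 lost 3 of 3.

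Matrix genes lost 39 of 58 GBR (67.2%). COL6A1 lost 6 of 8, ELN, elastin, 4 of 7, and COL1A1 both. Genes of survival and growth arrest lost 28 of 42 (66.7%), with GADD45B losing 4 of 8, MCL1 3 of 5 and MYC both. BIRC3 lost the GBR 0.152 kb from its TSS (13.0) and kept its strongest (214). Genes of remodelers and GR coregulators lost 13 of 20 (65.0%). CHD9 itself had 3, of which the one 1.57 kb from its TSS was lost (17.1) and 2 were kept, the strongest at 84.4.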

How the data were processed

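GR ChIP-seq peak lists of U2OS-GRα cells in 6 siRNA combinations were used. The submitters aligned the reads with BWA, called peaks with MACS2 and selected them across 2 replicates by irreproducible discovery rate (versions are not given in the sources used here), and the authors deposited 1 pooled list per combination with a signal value (enrichment over background), −log10 p, −log10 q and a summit offset for each peak. All peaks fitted the chromosome lengths of GRCh38. Input libraries and read counts were not analysed here, and the lists themselves hold no depth. Lost, kept and new GBR were set by overlap of at least 1 bp, shares were given 95% Wilson intervals (a share of 0 also the limit of 3 counts of the total), and logistic regressions (statsmodels 0.14.6, Python 3.11.15) took the percentile rank of −log10 p, its square and GC content as covariates, with Benjamini-Hochberg adjustment over 8 motifs. Overlap, motif search and regression were tested on simulated data. Genes were protein-coding genes of GENCODE 44 with the canonical TSS, and sequences were read from GRCh38, with none printed from chromosome 8.

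Named sites were the 6 strongest lost, kept and new GBR. Named genes were the 5 with most lost and no kept, the 5 with most kept GBR, and in each list up to 4 genes with most GBR and those with one within 10 kb. Any other gene was named after its values were seen, and some that the rule names are not reported here. The members, gene lists and motifs were chosen with earlier results of these data known. Motif combinations, the motif odds ratios of the other comparisons, exons of any gene type and the stretch of chromosome 8 were added after seeing the data.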

Additional observations from a re-analysis of the deposited data

How the results depend on the processing

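No paired analysis was possible from these lists because the 2 replicates of each combination are pooled in 1 list, and for the same reason no replicate could be left out. The paper reports its own differential binding test of siCHD9/siHic5 against siHic5/siNS cells, which was not used here. By that test it gives fewer GBR changed by CHD9 depletion than were called lost here. It also gives more GBR changed by BRM than by CHD9 depletion, the reverse order of the loss shares here. The paper's overlap of called peaks at Hic-5 blocked GBR gave CHD9 the larger share. The share of lost GBR, 75.4%, was 78.6% with reciprocal overlap of 50%, 78.2% with both lists at a −log10 q of 20 or more, 89.6% with only the siCHD9/siHic5 list held to that value, 85.3% with that list held to the lowest −log10 q of the siBRM/siHic5 list (chosen after seeing the data), 31.3% when the siHic5/siNS list was reduced to its 2451 strongest peaks and 29.6% between the 1000 strongest of each list. The 84 new GBR became 409 with reciprocal overlap and 4 at a −log10 q of 20 or more. Ranking by signal value put the kept GBR above the lost one in 85.3% of pairs. With neighbours within 50 kb the clustered odds ratio was 1.04. In 1-kb windows the odds ratio of the GRE was 1.04 and that of the half-site 1.16 (adjusted p 0.0805 by logistic regression over regions). Without the strength covariate the GRE gave 0.533, the half-site 0.960 and FOX 0.997. Genes with only lost GBR numbered 3692 within 50 kb and 1178 within 10 kb. The odds ratios of AP-1, TEAD and RUNX kept their direction and their side of the threshold under every alternative run. The lists give no counts, so what depth limits could not be computed.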
